A study of Mus musculus with 8 samples.

Results

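The apolipoprotein L (Apol) genes described here are Apol7a, Apol7b, Apol7c, Apol7e, Apol9a, Apol9b, Apol10a and Apol10b, 8 of the 34745 genes in the deposited tables. They were taken by symbol from a list chosen by earlier results of these data, namely their counts in DSS_CA against DSS. Their values in that comparison are therefore a description, with no test. Crypts, the glands of the intestinal epithelium, came from wild-type C57BL/6 mice on day 5, with 4 libraries in each of 2 groups. The first group had received DSS (dextran sulfate sodium), which damages the intestinal epithelium and serves to model colitis. The second group, here DSS_CA, had received both DSS and CA; going by the title of the series, CA is the primary bile acid cholic acid. All libraries thus came from mice given DSS, and there was no untreated group. No measure of injury is given. The labels name no gut segment, dose or route, though markers of gut segments are given below. The labels also do not say whether replicates were separate animals. The spread between libraries may therefore be technical.

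Apolipoproteins L share a family fold but are mostly intracellular, unlike the secreted apolipoproteins that carry lipid in lipoprotein particles. Many of them are induced by interferons, and the human member APOL1 is known for lysing trypanosomes. The mouse genes arose by repeated local duplication, so several are near-identical copies. Interferon-induced promoters often hold the interferon-stimulated response element (ISRE), a short sequence through which they respond.

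All 8 members had a lower CPM (the count scaled to library size by the TMM method) in each DSS_CA library than in any DSS library, and the deposited FPKM values were separated in the same way. Of the 19457 genes with at least 1 count, 3.65% were separated in that direction. Summed over the 8 genes, DSS 1 to 4 had 11696, 23312, 6650 and 16059 counts, and DSS_CA 1 to 4 had 1787, 2527, 2232 and 2270. The sum was 976 ± 559 CPM in DSS and 152 ± 57.7 CPM in DSS_CA (SD, n = 4 each), 6.44-fold lower with a log2 fold change of -2.69 (SE 0.465). The family held 0.0417% to 0.130% of all counts in the DSS libraries and 0.0121% to 0.0184% in the DSS_CA libraries. Of the 8 members, 5 passed the filter on low values (FPKM of at least 1 in at least 4 libraries) and 3 did not. The quasi-likelihood test of edgeR called 2 of them lower at an adjusted p of 0.05 over all 9913 tested genes, Apol9a and Apol9b, where 0.0908% of tested genes were called lower and 0.131% in either direction. Each of the 5 had an FPKM of at least 1 in all 8 libraries, the lowest being 1.13 for Apol7e in DSS_CA 1. Because the members were chosen with this comparison known, the number of members called carries no further weight.

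**Figure D1:**
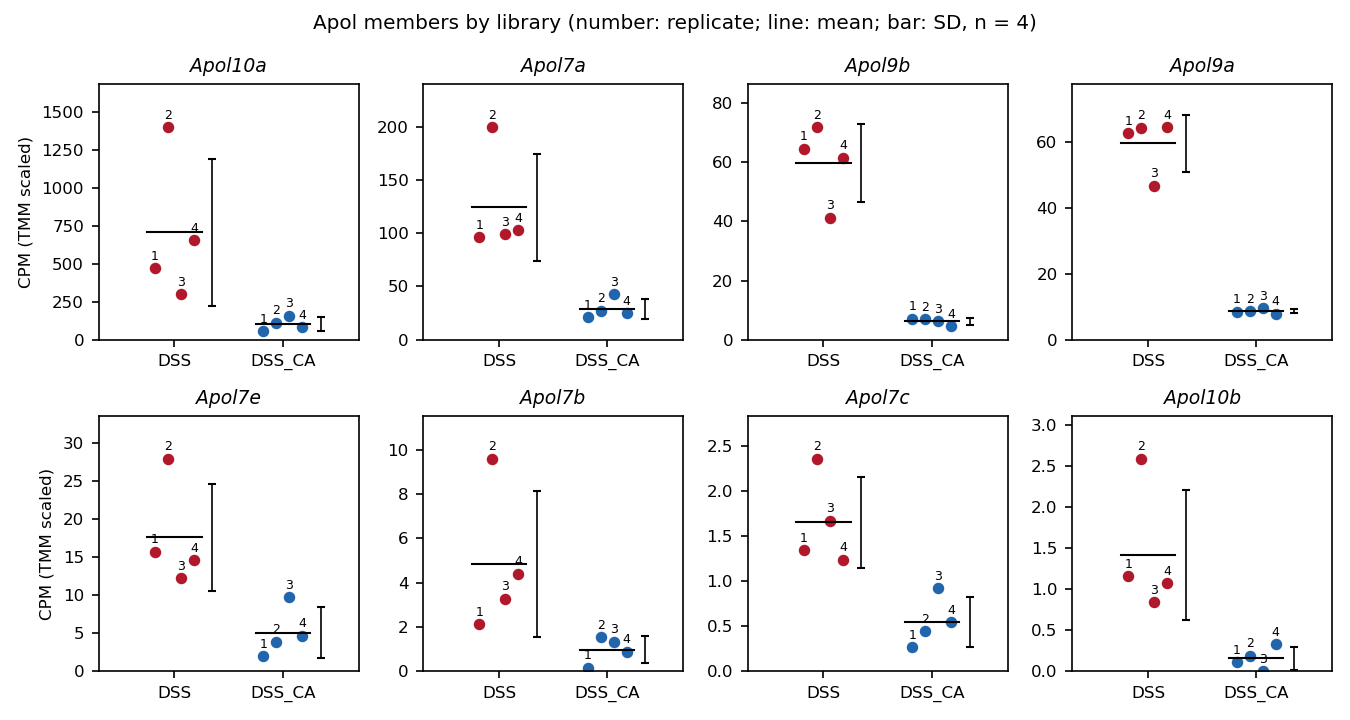
Each panel plots the TMM-scaled CPM of 1 Apol member on its own linear axis from 0, with the 4 DSS libraries in red and the 4 DSS_CA libraries in blue. The number beside a point is its replicate, the line is the group mean and the bar is the SD. In every panel the lowest DSS library lies above the highest DSS_CA library, and DSS 2 is the highest library for 7 of the 8 members.

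The members lie within 348 kb of chromosome 15 (GRCm38), and their promoters are shown because they differ in the ISRE letters, the half-site TTTC repeated after any 2 bases. The runs below cover bases just upstream of the RefSeq start (GRCm38.p6), read 5′ to 3′ on the strand of the gene, with each ISRE match in capitals; overlapping matches merge into 1 run of capitals.
Apol9a: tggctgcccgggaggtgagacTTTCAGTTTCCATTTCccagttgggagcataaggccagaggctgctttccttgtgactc
Apol9b: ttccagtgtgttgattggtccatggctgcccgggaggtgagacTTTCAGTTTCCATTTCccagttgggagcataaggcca
Apol7e: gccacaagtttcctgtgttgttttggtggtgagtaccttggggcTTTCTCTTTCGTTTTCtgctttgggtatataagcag
Apol7b: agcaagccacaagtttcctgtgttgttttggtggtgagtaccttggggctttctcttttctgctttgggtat
Apol7c: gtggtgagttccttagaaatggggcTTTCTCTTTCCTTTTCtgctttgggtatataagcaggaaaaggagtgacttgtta
Apol10a: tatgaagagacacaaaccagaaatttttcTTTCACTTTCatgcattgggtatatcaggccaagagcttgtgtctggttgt
Apol10b: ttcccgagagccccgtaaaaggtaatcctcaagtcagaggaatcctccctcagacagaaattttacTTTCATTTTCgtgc
Apol7a: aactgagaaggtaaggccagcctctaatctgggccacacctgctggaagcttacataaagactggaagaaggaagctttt
These runs are chr15:77411081-77411160 (minus strand) for Apol9a, chr15:77728992-77729071 (plus) for Apol9b and chr15:77698809-77698888 (plus) for Apol7e. They are chr15:77447469-77447540 (minus) for Apol7b, chr15:77533316-77533395 (minus) for Apol7c and chr15:77476967-77477046 (plus) for Apol10a. They are chr15:77596116-77596195 (minus) for Apol10b, which runs 10 bases past the start, and chr15:77399111-77399190 (minus) for Apol7a. The Apol7b run has 72 bases and stops at base -9 from the RefSeq start. The deposited position of Apol7b is 77422210-77447492, so part of this run lies inside the gene as deposited.

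The ISRE letters, searched on both strands from 250 bases before to 50 bases after the start, were found in the promoters of 6 of the 8 members and not in those of Apol7a and Apol7b. The same letters were in 3.44% of 32851 RefSeq promoters of that length and in 2.97% of the 7375 tested genes with a promoter. Of the promoters of 2 lists of interferon-induced genes, 15 of 33 (type I and III) and 13 of 27 (interferon gamma) held them. Apol9a, Apol9b, Apol7c and Apol7e each had 2 overlapping matches, and Apol10a and Apol10b had 1. The letters began 51 bases before the start in Apol10a, and 59 and 53 bases before it in Apol9a. In Apol10b they began 4 bases before the start and ran across it.

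The promoters of Apol9a and Apol9b were identical over the 278 bases that aligned. Those of Apol7b and Apol7e aligned over 295 bases with 2 mismatches, and 5 bases present only in Apol7e fall within its capitals. The inverted repeat bound by the bile acid receptor FXR, searched as AGGTCA followed after any 1 base by its reverse complement TGACCT, was in 0 of the 8 and in 0.00913% of all promoters. The letters of the gamma-activated site (GAS), searched as TTCNNNGAA with N for any base, were in 1 of the 8, Apol10a. They were in 8.3% of all promoters. These matches describe letters in 1 window and show neither binding nor its absence.

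Apol9a and Apol9b, whose proteins bind phosphatidylethanolamine, had the smallest coefficients of variation (SD over mean) of TMM-scaled CPM within each group, though not of the deposited FPKM. Apol9a had 62.6, 64.4, 46.7 and 64.5 CPM in DSS 1 to 4 and 8.45, 8.67, 9.61 and 7.85 CPM in DSS_CA 1 to 4. Its mean was 59.6 ± 8.62 CPM in DSS and 8.65 ± 0.731 CPM in DSS_CA (SD, n = 4), 6.89-fold lower (log2 fold change -2.78, SE 0.268). DSS 3 was the lowest of its group, yet stood several times above every DSS_CA library. Apol9b had 64.7, 72.0, 41.3 and 61.6 CPM in DSS 1 to 4 and 7.13, 6.96, 6.24 and 4.47 CPM in DSS_CA 1 to 4. Its mean was 59.9 ± 13.1 CPM in DSS and 6.20 ± 1.22 CPM in DSS_CA, 9.65-fold lower (log2 fold change -3.27, SE 0.312). DSS 3 was again the lowest DSS library, and DSS_CA 4 the lowest of its group.

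The longest coding transcripts of Apol9a and Apol9b were 98.4% identical over 1475 aligned bases. Of all 100-base stretches in their exons, 36.7% of those of Apol9b and 11.7% of those of Apol9a occurred unchanged in the other gene, so reads could have been split between them. The annotated exons of Apol9a hold 5953 bases, while its deposited FPKM imply a length of 1582. Its 11.7% was thus taken over more sequence than that length covers. Summed, DSS 1 to 4 held 2088, 1788, 1157 and 2238 counts of the pair, and DSS_CA 1 to 4 held 295, 247, 155 and 226. This was 119 ± 21.5 CPM in DSS and 14.8 ± 1.69 CPM in DSS_CA, 8.05-fold lower (log2 fold change -3.01, SE 0.283). In DSS 1 to 4, Apol9b took 50.8%, 52.8%, 46.9% and 48.8% of the counts of the pair. In DSS_CA 1 to 4 it took 45.8%, 44.5%, 39.4% and 36.3%. Every DSS_CA library thus had a smaller Apol9b share than any DSS library, and how the authors' counting assigned shared reads is not given in the sources used here.

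Apol10a was the most abundant member and the one with the widest absolute spread. It had 469, 1399, 301 and 655 CPM in DSS 1 to 4 and 55.5, 111, 158 and 80.3 CPM in DSS_CA 1 to 4. Its mean was 706 ± 484 CPM in DSS and 101 ± 44.1 CPM in DSS_CA, 6.98-fold lower (log2 fold change -2.80, SE 0.524). DSS 2 stood far above the other DSS libraries, and the lowest DSS library was 1.90 times the highest DSS_CA library. Apol10a alone took 59.4% to 78.7% of the family's counts in DSS and 58.8% to 69.5% in DSS_CA, so the family sum mostly follows it. Its closest relatives in transcript sequence were Apol11a (86.5% identity) and Apol11b (84.3%), both nearly silent here. Apol10b had 1.16, 2.59, 0.837 and 1.07 CPM in DSS 1 to 4 against 0.106, 0.190, 0 and 0.327 CPM in DSS_CA 1 to 4. It rested on 83 counts in all DSS libraries together and 11 in all DSS_CA libraries, and DSS_CA 3 had none. Without a filter its log2 fold change was -2.95 (SE 0.786), which became -3.54 without DSS_CA 4.

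Apol7a, the second most abundant member by counts, had 96.6, 200.1, 99.3 and 103 CPM in DSS 1 to 4. In DSS_CA 1 to 4 it had 20.9, 27.1, 42.5 and 24.7 CPM. Its mean was 125 ± 50.4 CPM in DSS and 28.8 ± 9.50 CPM in DSS_CA, 4.33-fold lower (log2 fold change -2.11, SE 0.360). DSS 2 was high while the other DSS libraries lay close together, and DSS_CA 3 was the highest of its group. Gm20688, a sense-strand transcript inside an intron of Apol7a, was below the filter with 59 counts over all libraries. It had 0.835 ± 0.521 CPM in DSS and 0.0946 ± 0.0474 CPM in DSS_CA, and the groups overlapped. Without a filter, its log2 fold change was -2.96 (SE 0.929). Its reads and those of unspliced Apol7a cannot be told apart.

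Apol7e had 15.7, 27.9, 12.2 and 14.6 CPM in DSS 1 to 4 and 1.95, 3.86, 9.71 and 4.63 CPM in DSS_CA 1 to 4. Its mean was 17.6 ± 7.04 CPM in DSS and 5.04 ± 3.31 CPM in DSS_CA, 3.53-fold lower (log2 fold change -1.82, SE 0.478). DSS_CA 3 came close to the lowest DSS library, and the gap between the groups was the narrowest of the 8 members, at 1.25 times. Apol7b, its near copy, had 2.13, 9.61, 3.27 and 4.40 CPM in DSS 1 to 4 and 0.158, 1.52, 1.33 and 0.872 CPM in DSS_CA 1 to 4. Without a filter, its log2 fold change was -2.28 (SE 0.613). The transcripts of Apol7b and Apol7e were 99.3% identical, and 54.5% and 55.3% of their 100-base stretches occurred in another Apol gene. A value for either gene alone is therefore uncertain.

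Apol7c, a member known from dendritic cells, had 1.34, 2.36, 1.67 and 1.24 CPM in DSS 1 to 4. In DSS_CA 1 to 4 it had 0.264, 0.443, 0.920 and 0.545 CPM. Its log2 fold change without a filter was -1.57 (SE 0.600), the smallest of the members, and its groups were close but did not overlap. It rested on 97 counts in DSS and 31 in DSS_CA.

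Levels of different members can be set beside each other only per length, for which the deposited FPKM were used. In DSS the order of mean FPKM was Apol10a at 90.4, Apol9b at 36.7, Apol9a at 35.7, Apol7a at 17.4, Apol7e at 7.19, Apol7b at 1.60, Apol7c at 0.731 and Apol10b at 0.637. Among neighbours in that order, the ranges over libraries overlapped for Apol10a and Apol9b, for Apol9b and Apol9a, and for Apol7c and Apol10b. In DSS_CA the order was Apol10a at 14.8, Apol9a at 5.83, Apol7a at 4.58, Apol9b at 4.35, Apol7e at 2.18, Apol7b at 0.377, Apol7c at 0.263 and Apol10b at 0.0920. There the ranges of Apol9a, Apol7a, Apol9b and Apol7e overlapped from each to the next, as did those of the 3 lowest members. Apol9b thus stood just above Apol9a in DSS, and below Apol9a and Apol7a in DSS_CA, in mean FPKM.

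The order depended on the gene lengths behind the FPKM. The deposited values imply a length of 6900 bases for Apol10a and 6427 for Apol7a, 2.27 and 2.12 times the exon length of those genes in GENCODE M21. Such a ratio above 2 occurred in 7.14% of 9885 tested genes. With the length of the longest coding transcript instead, a calculation added after the data were seen, Apol10a had 206 ± 105 FPKM in DSS and Apol7a 46.9 ± 11.3. Apol7a then stood above Apol9a at 37.0 ± 11.1 and Apol9b at 36.1 ± 11.8, in place of below both. The other 6 members moved by less than their SD.

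**Figure D2:**
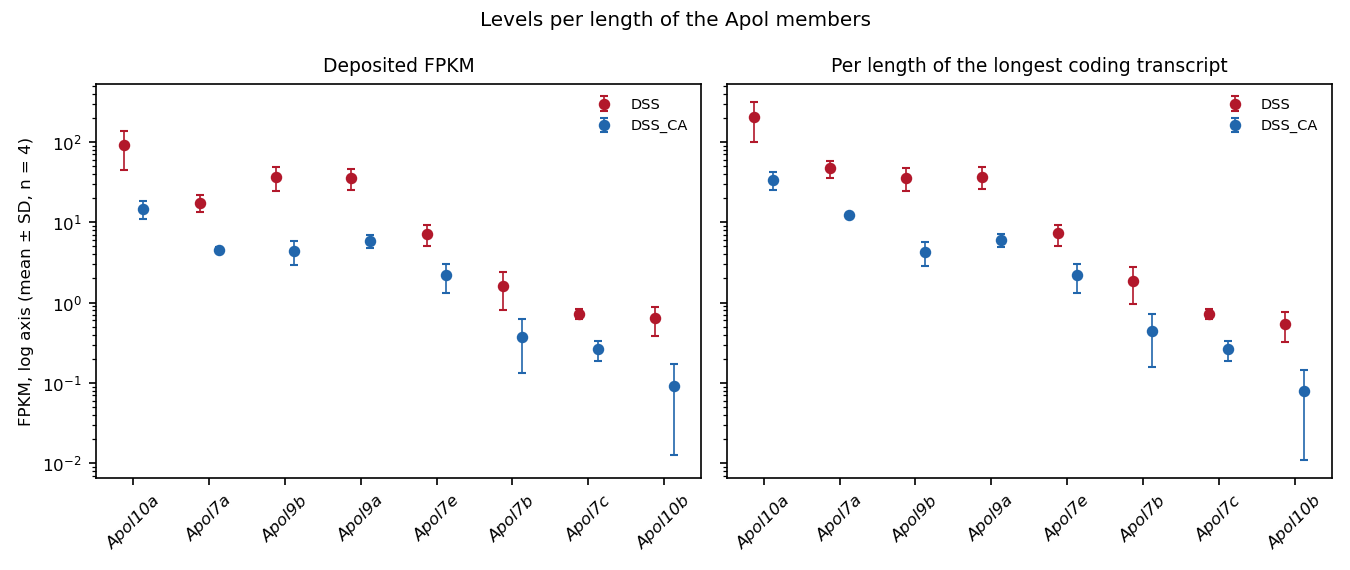
Mean FPKM of the 8 Apol members on a log axis with the SD over 4 libraries, DSS in red and DSS_CA in blue. The left panel uses the deposited FPKM and the right panel the length of the longest coding transcript, where Apol7a in DSS moves from 17.4 to 46.9 and Apol10a from 90.4 to 206.

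Within each group the members did not all vary alike. Apol7a, Apol7b, Apol7c, Apol7e and Apol10a were all highest in DSS 2 within DSS and lowest in DSS_CA 1 within DSS_CA, in CPM and in the deposited FPKM. DSS_CA 3 was the highest of its group for all but Apol7b of these 5 in CPM, but in FPKM only for Apol7c and Apol7e. After the group means were removed, Pearson r of log2 CPM over the 8 libraries lay between 0.67 and 0.94 for the 10 pairs of these 5 genes. The same r with these 5 genes ranged from 0.20 to 0.74 for Apol9a and from -0.15 to 0.52 for Apol9b, highest with Apol10a in both cases, so the range of Apol9a overlapped that among the 5. In log2 CPM the deviations of Apol9a and Apol9b from the group mean stayed between -0.51 and 0.30. This narrow spread turned with the scaling: on the deposited FPKM their coefficients of variation in DSS were 30.0% and 32.7%, above 24.1% for Apol7a and 14.9% for Apol7c. In DSS_CA they were 17.7% and 33.0%, above 7.37% for Apol7a. Apol10b, with few counts, had r between -0.15 and 0.21 with the other members. All these values share the scaling of each library. The 3 libraries DSS 2, DSS 3 and DSS_CA 3 also had the shortest harmonic mean length of counted genes. It was 1423, 1448 and 1445 bases there, against 1719 to 2412 in the others. Mitochondrial genes took 16.2%, 27.7%, 17.8% and 19.8% of the counts in DSS 1 to 4. In DSS_CA 1 to 4 they took 9.72%, 14.1%, 20.5% and 13.2%. This share was highest in DSS 2 and DSS_CA 3 and lowest in DSS_CA 1, as were most of the 5 genes above, and the groups overlapped. The part of library composition or RNA quality in the Apol values was not tested. Without those 3 libraries the log2 fold changes were -2.96 for Apol9a, -3.38 for Apol9b, -2.07 for Apol7a, -2.80 for Apol10a and -2.16 for Apol7e. In the fit without a filter they were -1.89 for Apol7b, -1.55 for Apol7c and -2.32 for Apol10b, the last of which moved by over 1.5 times in fold.

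**Figure D3:**
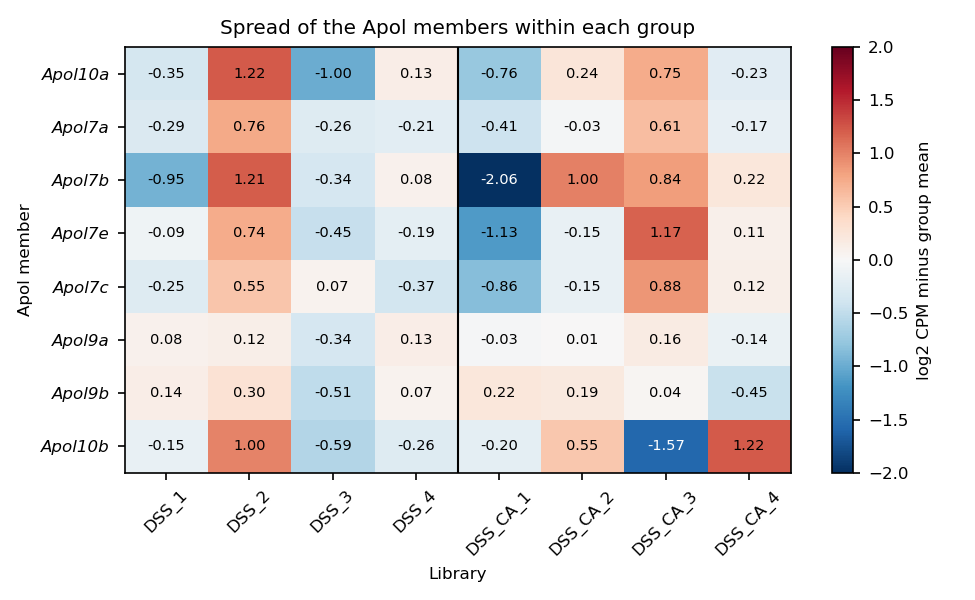
Each cell gives the log2 CPM of an Apol member in 1 library minus its group mean, red above and blue below, with the group boundary drawn as a line. Apol10a reaches 1.22 in DSS 2 and Apol7e 1.17 in DSS_CA 3, while Apol9a stays between -0.34 and 0.16.

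Other Apol genes were at or near 0. Apol11b had 11, 7, 0 and 17 counts in DSS 1 to 4 and none in DSS_CA, at least 10.3-fold lower when 3 counts over the DSS_CA group are taken as the floor. Since DSS 3 also had none, the groups overlapped. Apol11a had 4, 5, 0 and 6 counts in DSS and 1, 0, 0 and 0 in DSS_CA. Apol6 had 7 counts in DSS and 6 in DSS_CA, Apol8 had 4 and 0, Apold1 had 4 and 0, and Apol7d had none. Apol11a and Apol11b held the ISRE letters 50 bases before their starts, so the letters were also present at genes with almost no counts.

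The tested genes around the cluster had log2 fold changes near 0. Within 500 kb on either side of the members, 20 genes outside the family are listed, of which 9 were tested. Their median log2 fold change was 0.04, with a range of -0.31 to 0.51, and edgeR called 0 of the 9 at an adjusted p of 0.05, the smallest being 0.746. The nearest on one side were Rbfox2, a splicing factor (-0.00, SE 0.331), and 1110038F14Rik (0.25). On the other side were Myh9, a non-muscle myosin heavy chain (-0.27, SE 0.439), and Txn2, the mitochondrial thioredoxin (-0.27). None of the 9 had an unadjusted p below 0.05, and DESeq2 also called 0. Gm20688, described above with Apol7a, was among the listed genes that were not tested.

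**Figure D4:**
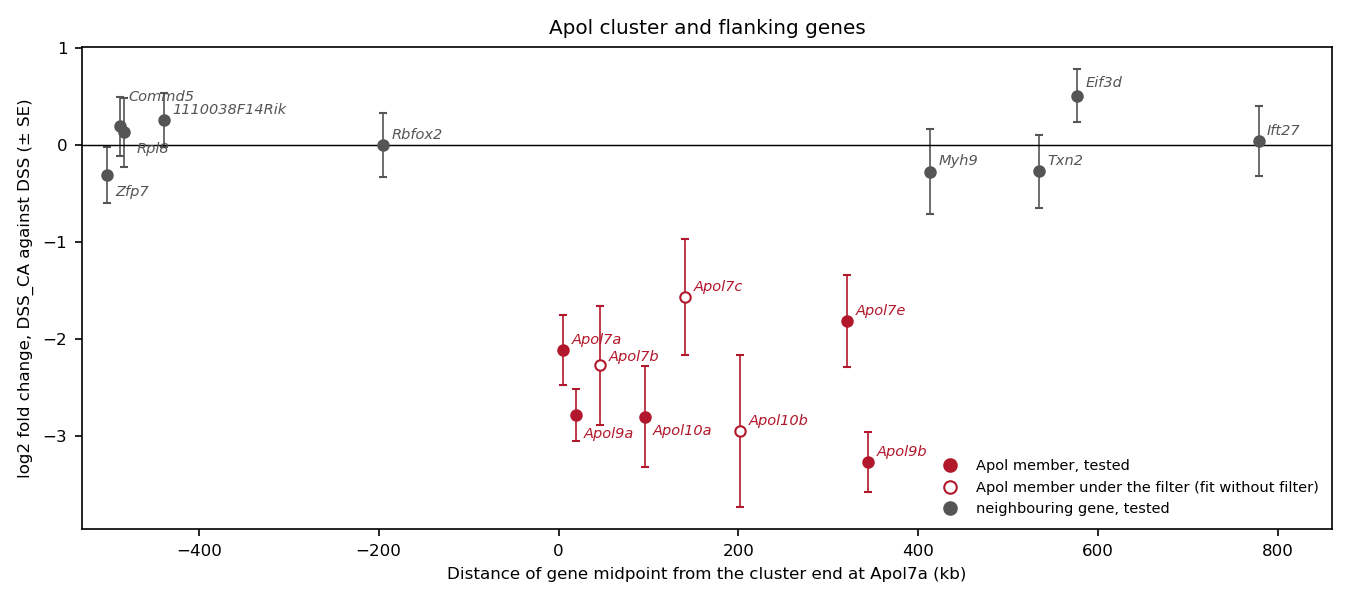
The log2 fold change of DSS_CA against DSS with its SE is plotted for each gene against the distance in kb of its midpoint from the end of the cluster at which Apol7a lies. Members are red (open circles mark those below the filter) and tested neighbours grey; the neighbours lie between -0.31 and 0.51 and the members between -3.27 and -1.57.

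Interferon-induced genes outside the family had lower medians in DSS_CA, but none passed the adjusted threshold in edgeR. Of 34 tested genes induced by type I and III interferons, 33 had a log2 fold change below 0, with a median of -1.20 beside 0.02 over all tested genes. Of 28 tested genes induced by interferon gamma, 27 were below 0, with a median of -0.96. Together 25 of the 62 genes had groups that did not overlap, lower in DSS_CA, where 2.81% of all tested genes did. At an unadjusted p of 0.05, 43 of the 62 were lower, where 4.85% of all tested genes were. edgeR called 0 of the 62, while DESeq2 called 22 of them lower, where it called 1.7% of all genes lower. Without DSS 2, DSS 3 and DSS_CA 3, edgeR called 36 of the 62 lower, where 4.25% of all genes were called lower.

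Named by the smallest p, the type I and III list gave Rtp4, a chaperone of receptor transport, whose DSS level of 26.3 ± 9.69 CPM compared with 7.13 ± 3.41 CPM in DSS_CA (SD, n = 4; log2 fold change -1.89, SE 0.395, edgeR adjusted p = 0.0867). Trim30a, a negative regulator of Toll-like receptor signalling, had a log2 fold change of -2.32 (SE 0.492), and Xaf1, an antagonist of the apoptosis inhibitor XIAP, had -1.69 (SE 0.370). From the interferon gamma list, H2-Aa, an MHC class II chain, had 535 ± 110 CPM in DSS and 187 ± 46.9 CPM in DSS_CA (log2 fold change -1.52, SE 0.313, edgeR adjusted p = 0.0820). Gbp2, a guanylate-binding protein, had -1.84 (SE 0.385), and Ido1, which degrades tryptophan, had -2.94 (SE 0.632).

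The genes that make, receive and transmit the interferon signal had a median nearer to that of all genes. Of 20 tested ligands, receptors and signal transducers the median log2 fold change was -0.15, with 13 below 0 and 7 above. edgeR called 0 of the 20, and 6 were lower at an unadjusted p of 0.05, beside 4.85% of all tested genes. Irf7, the transcription factor of the type I interferon response, had 79.8 ± 15.2 CPM in DSS and 35.7 ± 3.82 CPM in DSS_CA (log2 fold change -1.16, SE 0.261, edgeR adjusted p = 0.110). Irf1 had -1.07 (SE 0.306), and Usp18, which restrains interferon receptor signalling, had -0.82 (SE 0.300). The ligands Ifna4, Ifnb1, Ifnk, Ifnl2 and Ifnl3 were listed at 0 counts in every library. The ligand Ifng, below the filter, had 4, 6, 3 and 12 counts in DSS 1 to 4 and none in DSS_CA, at least 7.39-fold lower with a floor of 3 counts over the DSS_CA group. Every DSS library thus held a few counts of it and no DSS_CA library did.

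Feedback genes of NF-kappaB, another inflammatory pathway, had a median of -0.08 over 10 tested genes, with 8 below 0 and 2 above. edgeR called 0 of the 10, and 2 were lower at an unadjusted p of 0.05, beside 4.85% of all tested genes. The smallest p values belonged to Relb, an NF-kappaB subunit (log2 fold change -0.73, SE 0.305), and Nfkbiz, a nuclear protein of the I-kappaB family (-0.63, SE 0.285). Next was Tnfaip3, which encodes the inhibitor A20 (-0.82, SE 0.425). The apolipoproteins and partners of lipid transport share only part of their name with the family. Their median was -0.15 over 9 tested genes, with 5 below 0 and 4 above. edgeR called 0 of them, with 1 lower and 1 higher at an unadjusted p of 0.05. Among all 9913 tested genes, 481 were lower and 294 higher at that p. Apoc3, an inhibitor of lipoprotein lipase, had a log2 fold change of -1.35 (SE 0.392), Mttp, which loads lipid onto apolipoprotein B, had 0.86 (SE 0.306), and Apob had -0.87 (SE 0.432).

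**Figure D5:**
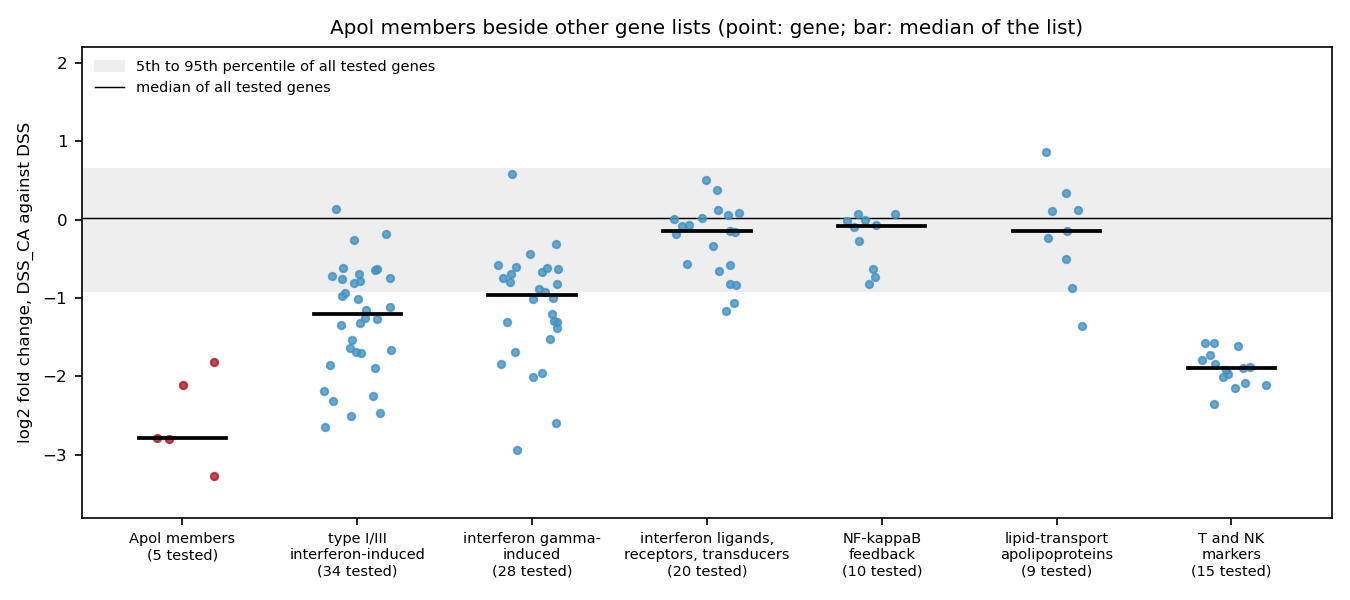
Points are the log2 fold changes of DSS_CA against DSS of the tested genes of each list, with the list median as a bar, and the grey band spans the 5th to 95th percentile of all tested genes. The 5 tested Apol members have a median of -2.78, the type I and III interferon list -1.20, the interferon gamma list -0.96, NF-kappaB feedback genes -0.08 and T and NK markers -1.90.

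Markers of immune cells differed between the same groups. All 15 T and NK cell markers were tested and had log2 fold changes below 0, and edgeR called 2 of them lower: Itgae, the integrin of intraepithelial lymphocytes (-1.90, SE 0.297, adjusted p = 0.0380), and the chemokine Ccl5 (-1.97, SE 0.320, adjusted p = 0.0477), where 0.0908% of all tested genes were called lower. The groups did not overlap for 12 of the 15, lower in DSS_CA, beside 2.81% of all tested genes, and 14 were lower at an unadjusted p of 0.05, beside 4.85%. Their summed level was 738 to 2254 CPM in DSS and 150 to 1180 CPM in DSS_CA; the groups overlapped in this sum, of which the granzyme gene Gzma (904 CPM in DSS and 303 CPM in DSS_CA, as means) was the largest term. Summed B and plasma cell markers were 54.2 to 82.3 CPM in DSS and 13.8 to 28.2 CPM in DSS_CA, with 4 of 9 tested. Summed dendritic cell and macrophage markers were 17.0 to 24.1 CPM in DSS and 4.60 to 9.71 CPM in DSS_CA, with 1 of 16 tested and Batf3 at 0. All 4 tested B and plasma markers and the 1 tested macrophage marker, Lyz2, were below 0. edgeR called none of these 5, and 4 were lower at an unadjusted p of 0.05, beside 4.85% of all tested genes.

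Summed epithelial markers ranged from 10139 to 11408 CPM in DSS and from 10630 to 11283 CPM in DSS_CA. The 12 markers of small-intestinal enterocytes summed to 30750.5 to 76966 CPM in DSS and 31117 to 97339 CPM in DSS_CA. The 8 colon markers summed to 114 to 228 CPM in DSS and 248 to 324 CPM in DSS_CA, with Car1 at 0. Endothelial markers were at most 3.66 CPM (Cldn5 at 0), stromal markers at most 10.4 CPM and neutrophil markers at most 1.02 CPM (Cxcr2 and Mpo at 0). All 8 Paneth cell markers were below 0, with a median of -1.27, and their summed level of 6625 to 40206 CPM in DSS overlapped with 4917 to 18783 CPM in DSS_CA. Of 7 goblet cell markers 6 were below 0, with a median of -1.01. edgeR called 0 of these 15 secretory markers. At an unadjusted p of 0.05, 8 of the 15 were lower, beside 4.85% of all tested genes. The groups did not overlap, lower in DSS_CA, for 2 of 8 Paneth and 2 of 7 goblet markers, beside 2.81% of all tested genes. Of the 6 crypt base stem cell markers 5 were tested, with 4 below 0, 1 above and a median of -0.37. edgeR called 0 of these 5, and 0 had an unadjusted p below 0.05. The summed stem cell markers were 445 to 1635 CPM in DSS and 294 to 735 CPM in DSS_CA, so the groups overlapped. In such bulk RNA, fewer cells of a type and less Apol RNA per cell cannot be told apart. The part of immune, secretory or stem cells in the Apol values was not tested.

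The genes whose pattern over the 8 libraries was most like that of the Apol9a and Apol9b sum were Dio1, a thyroid hormone deiodinase (Pearson r = 0.986), Asb13 (0.978), Tmem140 (0.977), the T cell gene Cd8a (0.975), Nt5e, the ecto-5′-nucleotidase (0.975), 2010109I03Rik (0.974), Upp1, a uridine phosphorylase (0.962), and Acap1 (0.959). None of the 8 was in the interferon lists. These r values largely reflect the difference between the groups, which all 8 genes share. After the group means were removed, the closest were the proliferation gene Mki67 (0.977), Gm8979 (0.970), Asb13 (0.970), Flrt3 (0.968), Arhgap42 (0.966), Gm6493 (0.965), B230354K17Rik (0.961) and Uevld (0.958). Asb13 alone was in both sets, and the log2 fold change of Mki67 was -0.55 (SE 0.433). With 8 libraries and 9913 genes these are descriptions of rank only.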

How the data were processed

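The deposited tables, 1 per library, hold raw counts and FPKM for Ensembl genes, per the file headers. Per the submitters' processing notes, HISAT2 and StringTie were used with GRCm38 (mm10), with no versions. Not given in the sources used here are the counting tool, its annotation, its strand setting and its handling of multi-mapping reads. For 17718 of 17718 genes checked, the deposited FPKM were the count over the library total and 1 fixed length per gene, within 1%. Total counts were 13334012 to 17973196 per library, so members with under 100 counts in a group are imprecise.

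Counts were fitted over 9913 genes (FPKM of at least 1 in at least 4 libraries) with edgeR 4.0.16 (limma 3.58.1, R 4.3.3), TMM scaling, the quasi-likelihood test (two-sided) and Benjamini-Hochberg adjustment at 0.05. The SE was derived from the test, as the size of the log2 fold change over the root of F. Sums of paralogs replaced their genes in the fit. Apol7b, Apol7c and Apol10b, below the filter, were fitted without it. DESeq2 1.42.0 was an alternative, beside other scalings and filters, a replicate block and left-out libraries. The common biological coefficient of variation was 0.416. On simulated data for DSS_CA against DSS with 9913 genes, edgeR recovered 5.41%, 80.6% and 90.6% of genes changed 2-, 4- and 8-fold.

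The members and lists were chosen with earlier results of these data known. All 8 members, other Apol genes found, and of each pathway list the genes past the threshold, or else the 3 with the smallest p, were named, as were the 2 nearest tested neighbours on each side and the 8 genes most like the Apol9 sum. Apol9c, Apol10c-ps, Apol11c and Apol12 were not matched by symbol. Promoters are RefSeq sequences (GRCm38.p6, all 8 members matched), and transcripts are from GENCODE M21, aligned with Biopython 1.88.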

Additional observations from a re-analysis of the deposited data

Results flagged for a closer look

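Among 20 groups of 4 libraries checked (each member and both sums, log2 TMM CPM), 3 held a library far from the others, with a gap over range above Dixon's critical value for 4 libraries. Chance gives about 1 such group in 20. Apol7a in DSS 2 was at 7.645, with the next library at 6.683 (gap over range 0.916). Apol9a in DSS 3 was at 5.547, with the next at 5.969 (0.907). The Apol9a and Apol9b sum in DSS_CA 4 was at 3.623, with the next at 3.962 (0.933). On the deposited FPKM, which are scaled by the library total and not by TMM, the same libraries had gaps over range of 0.378, 0.291 and 0.361, below the critical value, and DSS_CA 4 was no longer the lowest of its group.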

How the results depend on the processing

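Every member and both sums kept a negative log2 fold change under all alternatives and moved by less than the replicate SD. Left-out replicates gave -3.13 to -2.93 for the Apol9a and Apol9b sum and -2.95 to -2.22 for the family sum. Apol9a and Apol9b were called in every fit. The number of members called was 2 of 5 tested. It became 5 of 5 with DESeq2, 4 of 8 with no filter, and 5 of 5 without DSS 2, DSS 3 and DSS_CA 3. In those fits 169 of 9913, 61 of 19457 and 421 of 9913 genes were called lower, beside 9 of 9913 in the main fit. With 1 replicate left out, 2 to 5 of 5 members were called (5 without DSS_CA 3). Genes called in either direction, 13 of 9913 tested, became 27 with DESeq2 size factors, 220 with DESeq2 and 655 without those 3 libraries. With no filter they were 79 of 19457. With 1 replicate left out they were 4 to 84 (7 without DSS 1, DSS 2 or DSS 4, 4 without DSS_CA 2 or DSS_CA 4, 36 without DSS 3, 84 without DSS_CA 3). Interferon-induced genes called lower, 0 of 62, became 22 of 62 with DESeq2, 9 of 83 with no filter and 36 of 62 with those 3 libraries left out. With 1 replicate left out they were 0 to 6 of 62 (3 without DSS 3, 6 without DSS_CA 3). The causes were not tested. Flanking genes called lower stayed at 0 in all 15 alternatives. Same-numbered libraries did not deviate together in every pair (r of 0.73, -0.32, 0.11 and 0.19), so the numbers do not show a pairing. With the replicate number as a block, 65 of 9913 genes, 4 of 5 members and 6 of 62 interferon-induced genes were called. Depth limits Apol7b, Apol7c and Apol10b, which have few counts.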
